A study of Mus musculus with 12 samples.

Results

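The effect of a high-fat diet (HFD) on meKO macrophages was measured as the difference between 3 meKO HFD libraries and 3 meKO chow libraries, over all 12339 genes of the count table. These are 6 of the 12 libraries of the series, and the other 6 come from wild-type (WT) mice on the same diets. From the title of the series, meKO is read as a knockout in myeloid cells of Prkce, the gene of protein kinase C epsilon. The recombinase that drives the deletion is not named in the labels. All 4 groups came from mice that were 8 weeks old when they were injected with a viral vector (AAV8) that raises blood cholesterol when a Western-type diet is fed, so the chow controls carried it too. The HFD was that Western-type diet, and chow is the standard feed. At 4 weeks, sterile thioglycolate drew macrophages into the peritoneum and they were recovered by lavage. The labels describe 8 mice per genotype with 4 on HFD, and 3 libraries per group were analysed here. The labels do not say whether a library is a single mouse, so p-values measure the spread between libraries, which may in part be technical. Values are library-scaled count rates (CPM) with trimmed-mean scaling, and fold changes are HFD over chow on the log2 scale from edgeR's quasi-likelihood test, with Benjamini-Hochberg adjustment over all genes. Gene positions are on GRCm38 (mm10).

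Macrophages take up modified lipoproteins through scavenger receptors, which sterol does not shut off. Cell cholesterol is sensed by a pair of opposing systems. The sterol regulatory element-binding proteins (SREBPs) switch on cholesterol synthesis and lipoprotein uptake when sterol in the endoplasmic reticulum is low. The liver X receptors (LXRs), activated by oxysterols and by the synthesis intermediate desmosterol, switch on cholesterol export and fatty acid desaturation when sterol is high. Protein kinase C epsilon is a diacylglycerol-activated kinase that acts in phagocytosis and in inflammatory signalling of macrophages.

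The 6 libraries held between 25844958 and 37282772 counts. Prkce was low in all of them, at 1.42, 0.950 and 1.62 CPM in chow replicates 1 to 3 and 1.78, 0.954 and 1.51 CPM in HFD replicates 1 to 3, and its diet difference did not pass (log2 fold change 0.10 ± 0.32 SE, edgeR adjusted p = 0.898). The WT libraries had 4.27, 4.44 and 2.35 CPM on chow and 2.01, 2.89 and 2.53 CPM on HFD, all above the 6 meKO libraries. Which exon is deleted is not given in the labels, so the remaining counts do not measure the deletion. All 15 listed macrophage markers were in the table and none had a count of 0 in any of the 6 libraries. That also held for the listed markers of other cells, so it does not test the macrophage label. Adgre1 (F4/80) was at 676, 597 and 620.3 CPM on chow and 586, 523 and 513 CPM on HFD. Csf1r was at 628, 671 and 748 CPM on chow and 716, 480.4 and 473 CPM on HFD. A single library stood apart in Lyz2, the lysozyme gene of myeloid cells: meKO chow replicate 2 had 69.3 CPM against 16293 to 21309 CPM in the other 5. Without that library 13 genes passed, 10 of them among the 13 named below. The libraries also differed along transcript length. Spearman's rho between a library's deviation and transcript length was -0.15, -0.17 and 0.13 for the chow libraries and -0.15, -0.43 and -0.37 for the HFD libraries. Across 12049 genes the diet log2 fold change had a rho of -0.31 with length.

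Diet changed 13 genes in meKO at an adjusted p under 0.05, which is 0.105% of the 12339 tested. Of these, 4 rose on HFD (Scd1, Mexis, Cttn and Atp1b1; 0.0324% of genes) and 9 fell (Cd163, Mmp9, Chp2, F13a1, Rab3d, Kif19a, Tns1, Pirb and Gm8615; 0.0729%). Of the 13, 11 changed at least 2-fold. In each of the 13 the HFD libraries lay wholly above or wholly below the chow libraries, which held for 19.7% of all genes, 10.3% with HFD higher and 9.38% with HFD lower. The unadjusted p was under 0.05 for 1962 genes (15.9%), with 1079 higher (8.74%) and 883 lower (7.16%). The count moved with single libraries: it was 135 without meKO HFD replicate 1, 3 without meKO chow replicate 3, 2 without meKO HFD replicate 2 and 1 without meKO HFD replicate 3. DESeq2 called 226 genes on the same counts (1.83%). Fitted to the 6 meKO libraries alone, 1 gene passed, and with a correction for transcript length and GC content 44 passed, including all 13. The plot by library shows the separation of each gene.

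**Figure D1:**
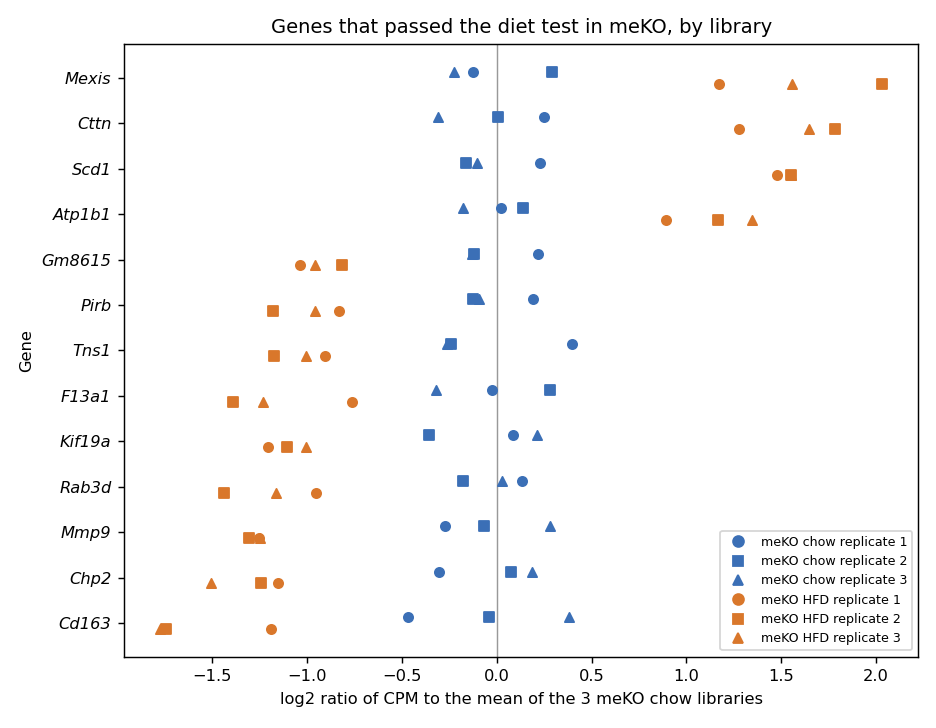
Each row is a gene that passed the diet test in meKO, and each point is a library, given as the log2 ratio of its CPM to the mean of the 3 meKO chow libraries (blue, chow; orange, HFD; marker shape, replicate). For all 13 genes the 3 HFD points lie on 1 side of the 3 chow points, and meKO HFD replicate 1 is the HFD point nearest to chow except for Gm8615, Kif19a and Mmp9.

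Among the genes that rose, Scd1 encodes stearoyl-CoA desaturase, the enzyme that makes monounsaturated fatty acids and a target of both LXR and SREBP (Entrez gene 20249, chr19:44394450-44407709). It stood at 5.83, 4.45 and 4.63 CPM in chow replicates 1 to 3 and 13.9, 14.6 and 14.6 CPM in HFD replicates 1 to 3. The HFD libraries lay in a narrow band well above chow, 2.88-fold in the ratio of means, with a log2 fold change, with its SE, of 1.52 ± 0.16 (adjusted p = 0.002 in edgeR). Scd1 passed in 22 of 22 alternative analyses (adjusted p from 1.18e-15 to 0.0333), and no other gene of the 13 did so. Mexis is a long noncoding RNA next to Abca1 that LXR induces and that amplifies Abca1 transcription (Entrez gene 381524, chr4:53261356-53270232). It had 10.8, 14.4 and 10.1 CPM on chow and 26.6, 48.2 and 34.7 CPM on HFD, 3.10-fold higher on HFD (log2 fold change 1.63 ± 0.24 SE, edgeR adjusted p = 0.018). Its highest chow library was below its lowest HFD library by a wide margin, and HFD replicate 2 was the highest.

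Cttn encodes cortactin, an actin-binding protein of lamellipodia and podosomes (Entrez gene 13043, chr7:144435724-144471560). It was scarce, at 2.44, 2.06 and 1.66 CPM on chow and 4.97, 7.06 and 6.43 CPM on HFD, and rose by 1.57 ± 0.20 on the log2 scale (SE; edgeR adjusted p = 0.011). Atp1b1, the beta subunit of the sodium and potassium pump (Entrez gene 11931, chr1:164437099-164458355), had 2.93, 3.18 and 2.56 CPM on chow and 5.35, 6.48 and 7.35 CPM on HFD and rose by 1.14 ± 0.17 (adjusted p = 0.018). For Atp1b1 the WT libraries had 4.67, 4.77 and 4.20 CPM on chow and 4.89, 4.20 and 4.96 CPM on HFD. Each WT library thus lay above the meKO chow libraries and below the meKO HFD libraries. Cttn and Atp1b1 are also abundant in epithelial cells. The summed level of 19 mesothelium and fibroblast markers ran from 63.3 to 122 CPM on chow and 141 to 184 CPM on HFD in meKO. In WT the same sum ran from 63.4 to 112 CPM on chow and 118 to 171 CPM on HFD. The WT log2 fold changes on HFD were 0.04 for Atp1b1 and 0.72 for Cttn. The part of these cells in the rise of Cttn and Atp1b1 in meKO was not tested. In bulk RNA more cells of a type and more RNA per cell cannot be told apart. Mexis, which did so also without meKO chow replicate 1, Cttn and Atp1b1 each lost the threshold with the 6 meKO libraries alone and without meKO chow replicate 3, meKO HFD replicate 2 or meKO HFD replicate 3, where the adjusted p reached 0.132, 0.101 and 0.153 at most.

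Among the genes that fell, Cd163 had the largest change. It encodes the scavenger receptor for hemoglobin bound to haptoglobin (Entrez gene 93671, chr6:124304636-124330529). Its values were 12.2, 16.3 and 21.9 CPM in chow replicates 1 to 3 and 7.38, 5.04 and 4.92 CPM in HFD replicates 1 to 3, a log2 fold change, with its SE, of -1.53 ± 0.23 (adjusted p = 0.018 in edgeR). Chow replicate 1 was the lowest chow library and HFD replicate 1 the highest HFD library, and they still did not overlap. F13a1, the A subunit of coagulation factor XIII (Entrez gene 74145, chr13:36867178-37050244), had 289.8, 358 and 236 CPM on chow and 174, 112 and 126 CPM on HFD, a log2 fold change, with its SE, of -1.10 ± 0.18 (adjusted p = 0.0297 in edgeR). Lyve1, a hyaluronan receptor, had 10.02, 11.5 and 11.5 CPM on chow and 6.45, 2.17 and 3.77 CPM on HFD without passing (log2 fold change -1.40 ± 0.28 SE, edgeR adjusted p = 0.0801). Cd163 lost the threshold with the 6 meKO libraries alone and without meKO chow replicate 3, meKO HFD replicate 2 or meKO HFD replicate 3 (adjusted p up to 0.16), and F13a1 passed in 15 of 22 alternatives.

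Mmp9 encodes gelatinase B, a matrix metalloproteinase (Entrez gene 17395, chr2:164940326-164955850). It had 18.2, 20.95 and 26.7 CPM on chow and 9.21, 8.89 and 9.25 CPM on HFD, and the 3 HFD libraries were nearly equal (log2 fold change -1.27 ± 0.21 SE, edgeR adjusted p = 0.0367). Chp2, a calcineurin B-like cofactor of sodium and proton exchangers (Entrez gene 70261, chr7:122208621-122222539), had 6.49, 8.44 and 9.12 CPM on chow and 3.61, 3.39 and 2.82 CPM on HFD (log2 fold change -1.29 ± 0.21 SE, edgeR adjusted p = 0.0345). Kif19a, a kinesin of motile cilia (Entrez gene 286942, chr11:114764970-114791166), had 26.1, 19.2 and 28.5 CPM on chow and 10.7, 11.4 and 12.3 CPM on HFD (log2 fold change -1.10 ± 0.19 SE, edgeR adjusted p = 0.0475). Tns1 encodes tensin 1, which links integrins to actin (Entrez gene 21961, chr1:73910232-74124548), and it had 125, 80.4 and 79.1 CPM on chow and 50.6, 42.00 and 47.2 CPM on HFD (log2 fold change -1.02 ± 0.18 SE, edgeR adjusted p = 0.0476). Chow replicate 1 was the highest library for Tns1, and without it the adjusted p was above 0.05. These 4 genes sat closest to the threshold: Mmp9 passed in 13 of 22 alternatives, Chp2 in 13 of 22, Kif19a in 12 of 22 and Tns1 in 10 of 22.

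For Rab3d and Pirb, each meKO HFD library lay below all 9 other libraries. Rab3d is a small GTPase of secretory granules (Entrez gene 19340, chr9:21907491-21918199), and it had 19.8, 16.01 and 18.4 CPM on chow and 9.34, 6.68 and 8.06 CPM on HFD in meKO (log2 fold change -1.17 ± 0.16 SE, edgeR adjusted p = 0.011). The WT libraries had 16.2, 21.1 and 15.2 CPM on chow and 19.8, 20.2 and 18.98 CPM on HFD. Pirb encodes an inhibitory immunoglobulin-like receptor of myeloid cells that binds MHC class I (Entrez gene 18733, chr7:3712505-3720382). It had 800.1, 643 and 657 CPM on chow and 393, 309 and 361 CPM on HFD (log2 fold change -0.98 ± 0.14 SE, edgeR adjusted p = 0.018), and 800.1, 622 and 578 CPM in WT chow and 551, 595 and 645 CPM in WT HFD. Pira2, a closely related activating receptor of the same family, had 260.0, 195 and 217 CPM on chow and 140.4, 118 and 137 CPM on HFD and just missed the threshold (log2 fold change -0.77 ± 0.14 SE, edgeR adjusted p = 0.053). With the length and GC correction Pira2 passed (log2 fold change -0.76, edgeR adjusted p = 0.0307). Pirb and Rab3d each lost the threshold in the same 4 alternatives as Cd163. Reads of this family could have been assigned to either gene, so their separate values are uncertain. The sum of Pirb and Pira2 was 924 ± 119 CPM on chow and 486 ± 54.5 CPM on HFD (SD, n = 3).

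Gm8615 is annotated in the table as a pseudogene of Gnpda1, the glucosamine-6-phosphate deaminase of amino sugar breakdown (Entrez gene 667410, chr5:149154128-149156192). It had 182, 144 and 142 CPM on chow and 75.97, 88.8 and 80.3 CPM on HFD (log2 fold change -0.93 ± 0.12 SE, edgeR adjusted p = 0.011). Gnpda1 itself had 264, 224 and 209.6 CPM on chow and 343, 401 and 366 CPM on HFD, higher on HFD without passing (log2 fold change 0.67 ± 0.12 SE, edgeR adjusted p = 0.053). With the length and GC correction Gnpda1 passed (log2 fold change 0.62, edgeR adjusted p = 0.0148). The pair was examined together after these values were seen. The sum of both genes was 445, 368 and 352 CPM on chow and 419, 490.3 and 446 CPM on HFD, and the groups overlapped. Gm8615 took 40.8, 39.1 and 40.5% of that sum on chow. On HFD its share was 18.1, 18.1 and 17.99%. In WT it was 18.5, 18.01 and 18.4% on chow and 18.03, 18.2 and 18.2% on HFD. The 3 meKO chow libraries therefore stood apart from the other 9, which all lay between 18.0% and 18.5%. Reads shared by the 2 copies could be counted on either, so Gm8615 is reported as uncertain. It passed in 20 of 22 alternatives, all but the 6 meKO libraries alone and the omission of meKO HFD replicate 3.

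**Figure D2:**
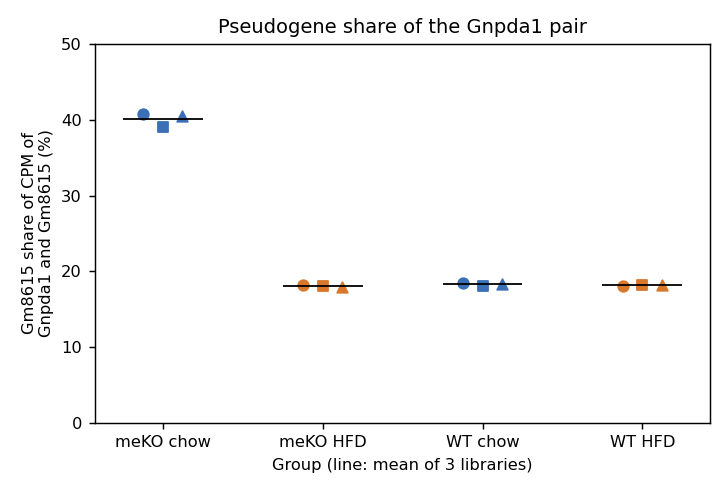
Each point is a library and shows the percentage of the summed CPM of Gnpda1 and Gm8615 that was counted on Gm8615 (marker shape, replicate; line, mean of 3 libraries). The meKO chow libraries are at 39.1% to 40.8% and the other 9 libraries at 18.0% to 18.5%.

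The effect in meKO was set beside the diet effect in WT, which rests on other libraries. Of the 13 genes, 11 had the same direction in WT, against 76.4% of all genes, and 9 also passed there, all in the same direction. The 13 were chosen on their meKO values. In WT, Scd1 was at 1.21 ± 0.15 (adjusted p = 0.00207), Mexis at 1.75 ± 0.25 (adjusted p = 0.00308), Cd163 at -1.61 ± 0.23 (adjusted p = 0.00349), Mmp9 at -1.96 ± 0.21 (adjusted p = 6.78e-04) and Chp2 at -1.72 ± 0.21 (adjusted p = 0.00139), as edgeR log2 fold changes ± SE. Tns1 was at -0.995 ± 0.18 (adjusted p = 0.00839), Kif19a at -0.87 ± 0.19 (adjusted p = 0.0142) and F13a1 at -0.86 ± 0.17 (adjusted p = 0.0123). Cttn was at 0.72 ± 0.21 (adjusted p = 0.0293), less than its meKO value, with an unadjusted p of 0.0109 for the difference. The 4 genes that did not pass in WT were Atp1b1 at 0.04 ± 0.17 (adjusted p = 0.865), Pirb at -0.16 ± 0.14 (adjusted p = 0.414), Rab3d at 0.17 ± 0.15 (adjusted p = 0.427) and Gm8615 at 0.22 ± 0.12 (adjusted p = 0.203). The test of the difference between genotypes passed for none of the 13 in edgeR, and for 0.0162% of all genes. Its smallest adjusted p was 0.0560 for Gm8615 (difference meKO minus WT -1.15 ± 0.18), followed by 0.0718 for Rab3d (-1.34 ± 0.22). For 6 of the 13 its unadjusted p was under 0.05, against 6.13% of all genes. Those 6 were chosen on the meKO effect, which enters the difference. In WT 2634 genes passed (21.3%), a count that was 96 without WT HFD replicate 3, 129, 319 and 4921 without WT chow replicates 1, 2 and 3, and 460 and 1672 without WT HFD replicates 1 and 2. Of the 1962 meKO genes at an unadjusted p under 0.05, 93.7% had the same direction in WT. Both effects ran along transcript length, with a rho of -0.31 across genes in meKO and -0.53 in WT. WT chow replicates 1 and 2 stood apart in their own relation to length, at a rho of 0.59 and 0.64, against -0.05 in WT chow replicate 3 and -0.11 to -0.42 in the WT HFD libraries. The part of length in the shared directions was not tested.

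**Figure D3:**
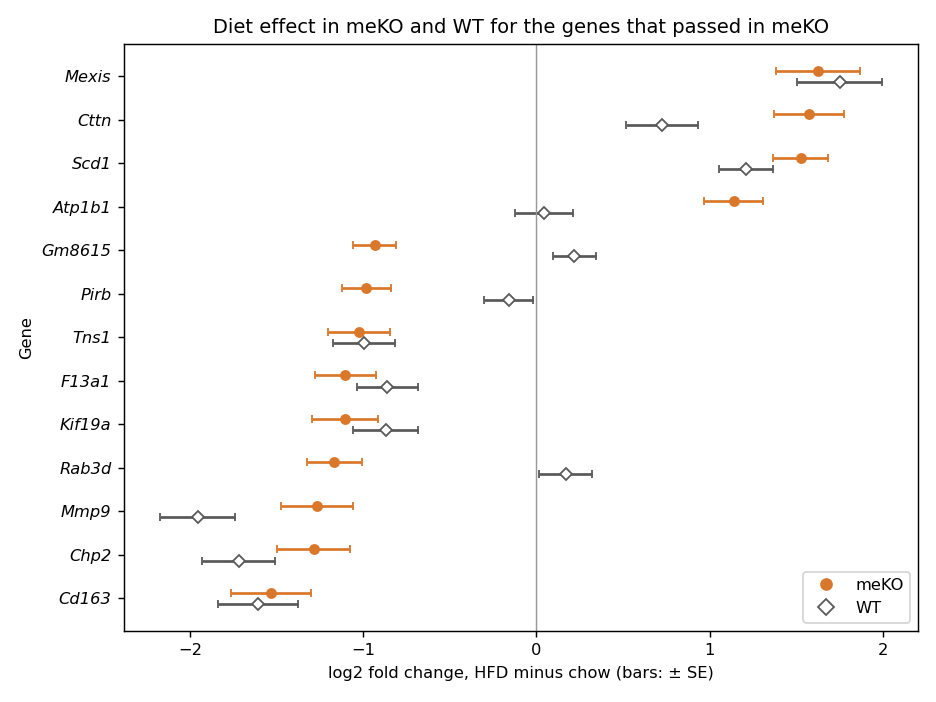
Each row is a gene that passed in meKO, with its log2 fold change on HFD against chow in meKO (filled) and in WT (open), and bars of ± SE. Tns1, Cd163, Mexis, Kif19a, F13a1 and Scd1 are close in both genotypes, with the largest difference, 0.32, for Scd1. Atp1b1, Pirb, Rab3d and Gm8615 lie near 0 in WT.

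Cholesterol synthesis genes had mostly negative and LXR genes mostly positive diet differences in meKO, although few passed. Of the 24 cholesterol synthesis enzymes, all in the table, none passed in edgeR (DESeq2 called 0 higher and 4 lower), 0 higher and 12 lower had an unadjusted p under 0.05, and the median log2 fold change was -0.35. The median over all genes was -0.01, and 8.74% of all genes were higher and 7.16% lower at an unadjusted p under 0.05. The counts of each list, here and in the paragraphs that follow, stand beside these shares and were not tested against them. Sqle and Cyp51 were among the 3 genes of the list with the smallest p-values. Sqle, the rate-limiting squalene epoxidase, had 10.8, 16.3 and 9.57 CPM on chow and 6.86, 4.69 and 5.92 CPM on HFD (log2 fold change -1.07 ± 0.20 SE, edgeR adjusted p = 0.0574). Cyp51, the lanosterol demethylase, had 15.3, 22.9 and 22.5 CPM on chow and 11.1, 11.6 and 11.8 CPM on HFD (log2 fold change -0.81 ± 0.18 SE, edgeR adjusted p = 0.0932). For both the HFD libraries lay below the chow libraries. Without meKO HFD replicate 1, 1 gene of the list, Sqle, passed (adjusted p = 0.0292). Per library the list stood, as the median of log2(CPM + 1) against the chow mean, at -0.22, -0.39 and -0.31 in the HFD libraries and at -0.11, 0.09 and 0.05 in the chow libraries, without overlap.

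Of the 24 genes in the table for SREBP control and sterol import, none passed in edgeR (DESeq2 called 0 higher and 4 lower), 0 higher and 6 lower had an unadjusted p under 0.05, and the median log2 fold change was -0.07. Stard4, a sterol carrier in the cytosol, had 5.28, 8.44 and 8.43 CPM on chow and 3.88, 2.02 and 2.30 CPM on HFD (log2 fold change -1.41 ± 0.26 SE, edgeR adjusted p = 0.053). Insig1, which retains the SREBP precursors in the endoplasmic reticulum, had 50.2, 68.2 and 64.9 CPM on chow and 42.4, 28.5 and 35.4 CPM on HFD (log2 fold change -0.78 ± 0.16 SE, edgeR adjusted p = 0.0887). Srebf2, the SREBP of cholesterol genes, was at a log2 fold change -0.65 ± 0.16 SE, edgeR adjusted p = 0.14, and Srebf1, the SREBP of fatty acid genes, at a log2 fold change -0.05 ± 0.16 SE, edgeR adjusted p = 0.896. Stard4, Insig1 and Sqle passed after the length and GC correction (adjusted p = 0.0434, 0.0436 and 0.0436 in edgeR). Without meKO HFD replicate 1, Stard4 and Insig1 passed (adjusted p = 0.00898 and 0.0283).

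RefSeq windows from 250 bases before to 50 after the start (GRCm38.p6) were available for 19 of the 24 cholesterol enzymes, and the letters of elements known from sterol genes were searched in them on both strands. The CCAAT letters CCAATNA, part of the box bound by NF-Y beside SREBP, were in 12 of the 19 (63.2%), against 20.2% of 9553 genes of the table with a window. The sterol regulatory element letters TCACNCCAC were in 1 of the 19, Hmgcs1, against 1.31% of the 9553. The repeat read by LXR was searched only as 2 exact copies of AGGTCA with NNNN between them. None of the 9553 genes held these exact letters, so the search cannot tell LXR genes from others. Variants of the repeat were not searched. A match describes these letters and is not a measured site. The upstream 250 bases of Hmgcs1 (chr13:119690101-119690350, + strand), Idi1 (chr13:8885356-8885605, + strand) and Sc5d (chr9:42264301-42264550, - strand) are shown. Hmgcs1 was chosen as the enzyme with the sterol element letters, and Idi1 and Sc5d as those with the smallest p-values among enzymes with a match. Other enzymes of the list with an unadjusted p under 0.05 held the CCAAT letters too and are not shown. In the lines that follow, capitals mark the matches on either strand.
Hmgcs1: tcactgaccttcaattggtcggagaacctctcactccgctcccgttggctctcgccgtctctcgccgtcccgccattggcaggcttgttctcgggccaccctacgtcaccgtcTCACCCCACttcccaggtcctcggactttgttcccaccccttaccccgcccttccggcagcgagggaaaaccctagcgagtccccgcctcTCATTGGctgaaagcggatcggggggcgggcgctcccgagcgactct
Idi1: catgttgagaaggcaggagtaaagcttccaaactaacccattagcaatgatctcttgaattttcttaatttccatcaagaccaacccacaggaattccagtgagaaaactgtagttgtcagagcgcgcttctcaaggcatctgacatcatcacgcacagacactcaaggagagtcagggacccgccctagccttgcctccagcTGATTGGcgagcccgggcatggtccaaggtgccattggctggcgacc
Sc5d: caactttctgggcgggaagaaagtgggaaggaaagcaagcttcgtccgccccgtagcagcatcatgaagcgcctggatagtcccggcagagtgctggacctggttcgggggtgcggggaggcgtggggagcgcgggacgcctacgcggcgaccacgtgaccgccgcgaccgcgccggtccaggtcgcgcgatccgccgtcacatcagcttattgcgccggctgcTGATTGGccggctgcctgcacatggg
Hmgcs1, a synthase early in the pathway, was at a log2 fold change -0.29 ± 0.13 SE, edgeR adjusted p = 0.302. Idi1, the isopentenyl diphosphate isomerase, was at a log2 fold change -1.07 ± 0.27 SE, edgeR adjusted p = 0.14, and Sc5d, a late sterol desaturase, at a log2 fold change -0.56 ± 0.16 SE, edgeR adjusted p = 0.173.

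Of the 28 genes in the table for LXR receptors and targets, 2 passed, higher on HFD (DESeq2 called 9 higher and 1 lower), 10 higher and 3 lower had an unadjusted p under 0.05, and the median log2 fold change was 0.20. For all genes the shares at that unadjusted p were 8.74% higher and 7.16% lower. The 2 that passed were Scd1 and Mexis. Abca1, the cholesterol exporter to apolipoprotein A-I, had 246, 306 and 215 CPM in chow replicates 1 to 3 and 436, 539 and 431 CPM in HFD replicates 1 to 3 (log2 fold change 0.87 ± 0.25 SE, edgeR adjusted p = 0.173). Abcg1, the exporter to high-density lipoprotein, had 435, 279.8 and 339 CPM on chow and 573, 437 and 532 CPM on HFD (log2 fold change 0.55 ± 0.18 SE, edgeR adjusted p = 0.213). Scd2, a second desaturase, had 36.9, 42.04 and 25.6 CPM on chow and 100.5, 63.5 and 73.8 CPM on HFD and just missed the threshold (log2 fold change 1.19 ± 0.22 SE, edgeR adjusted p = 0.0575). Apoc1, a small apolipoprotein, had 0.821, 0.407 and 0.380 CPM on chow and 1.09, 3.36 and 2.14 CPM on HFD (log2 fold change 1.999 ± 0.58 SE, edgeR adjusted p = 0.182), and Apoe, the main apolipoprotein of macrophages, differed little (log2 fold change 0.18 ± 0.16 SE, edgeR adjusted p = 0.565). Nr1h3, the gene of LXR alpha, was at 0.44 (adjusted p = 0.147) and Lpcat3, a phospholipid acyltransferase, at 0.39 (adjusted p = 0.14), as edgeR log2 fold changes. After the length and GC correction Scd2 and Abcg1 passed as well (adjusted p = 0.0223 and 0.0434). The list stood at 0.22, 0.19 and 0.19 against the chow mean in the HFD libraries, all above the chow libraries.

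**Figure D4:**
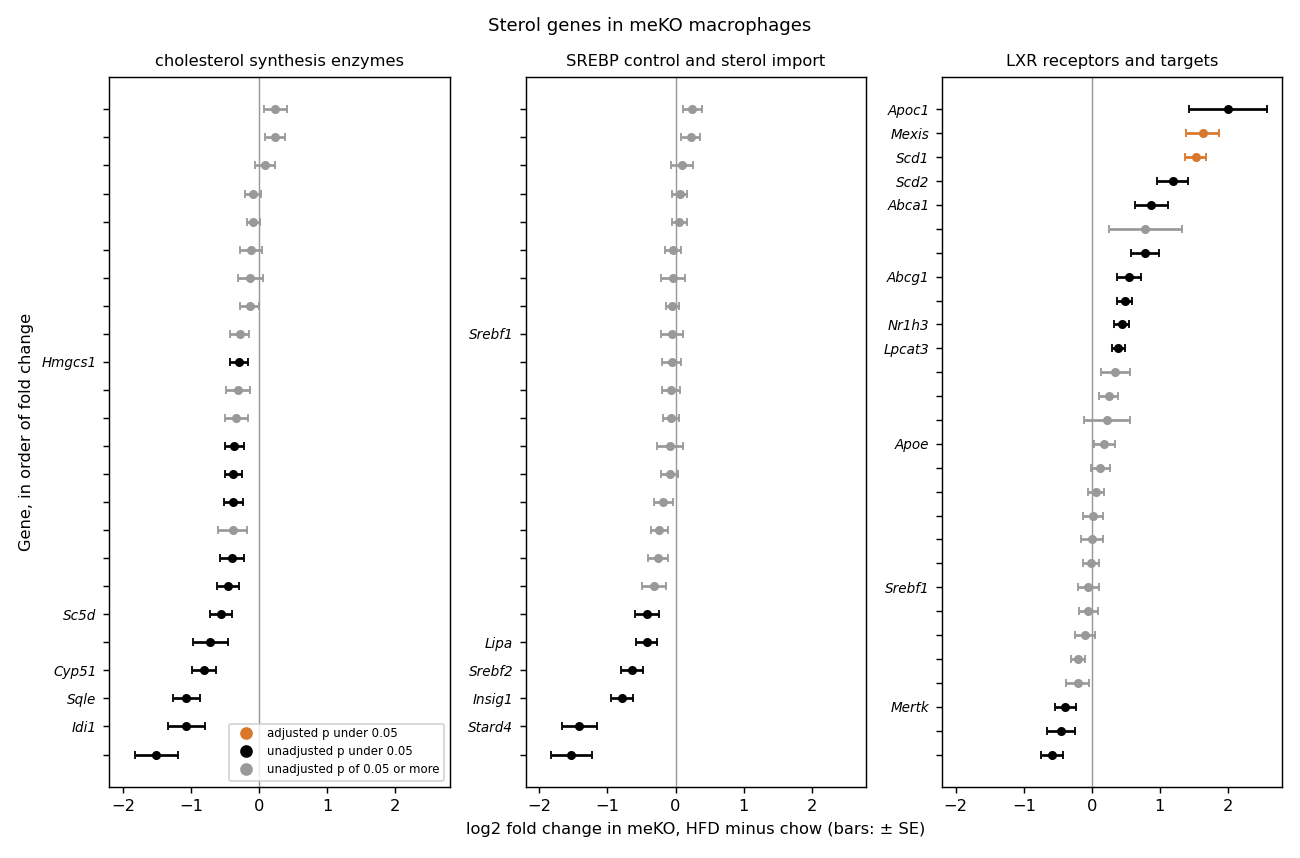
Points are log2 fold changes in meKO on HFD against chow, with bars of ± SE, for each listed gene in the table, with names at the genes given in the text (orange, adjusted p under 0.05; black, unadjusted p under 0.05; grey, others). Most cholesterol synthesis enzymes lie below 0, with Sqle at -1.07, and in the LXR list Scd1 and Mexis, the 2 that passed, lie at 1.52 and 1.63.

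Fatty acid genes did not share a direction. Among all genes, 8.74% were higher and 7.16% lower at an unadjusted p under 0.05, which stands beside each count here. Of the 20 in the table for synthesis and desaturation, 1 passed, higher on HFD (DESeq2 called 2 higher and 0 lower), 4 higher and 4 lower had an unadjusted p under 0.05, and the median log2 fold change was 0.11. Scd1 and Scd2 were higher, whereas Slc25a1, the mitochondrial citrate carrier, was at -0.46 (adjusted p = 0.2) and Fasn, the fatty acid synthase, at -0.99 (adjusted p = 0.225) on the log2 scale in edgeR, both short of the threshold. Of the 28 genes of fatty acid oxidation and PPAR targets, none passed in edgeR (DESeq2 called 0 higher and 0 lower), 3 higher and 1 lower had an unadjusted p under 0.05, and the median log2 fold change was 0.05. Etfb, the electron transfer flavoprotein beta subunit, was at 0.50 (adjusted p = 0.212), Slc25a20, the acylcarnitine carrier, at 0.32 (adjusted p = 0.213) and Pparg at 0.40 (adjusted p = 0.291). Of the 19 genes of lipid droplets and lipases, none passed in edgeR (DESeq2 called 1 higher and 0 lower), 1 higher and 4 lower had an unadjusted p under 0.05, and the median log2 fold change was -0.02. Plin2, the coat protein of lipid droplets, had 2890.5, 2712 and 2829.7 CPM on chow and 3518, 3660.5 and 3724 CPM on HFD (log2 fold change 0.37 ± 0.11 SE, edgeR adjusted p = 0.178), while Lipe and Lipa, a neutral and the lysosomal lipase, were at -0.39 (adjusted p = 0.252) and -0.42 (adjusted p = 0.252). The median of the lipid droplet list changed sign in 4 of 22 alternatives.

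Of the 23 scavenger and lipoprotein receptors in the table, 1 passed, lower on HFD (DESeq2 called 0 higher and 5 lower), and the median log2 fold change was -0.30. An unadjusted p under 0.05 was found for 2 higher and 10 lower, against 8.74% and 7.16% of all genes. Besides Cd163, Lrp8 and Stab1 were among those 10, and not all of the 10 are named. Lrp8, the apolipoprotein E receptor 2, had 2.52, 3.07 and 1.49 CPM on chow and 1.09, 0.343 and 0.516 CPM on HFD (log2 fold change -1.81 ± 0.43 SE, edgeR adjusted p = 0.123). Stab1 is a clearance receptor for modified lipoproteins (log2 fold change -0.88 ± 0.22 SE, edgeR adjusted p = 0.14). Mrc1, the mannose receptor, was at -0.52 (adjusted p = 0.206) and Cd36, a receptor for oxidized lipoproteins, at 0.25 (adjusted p = 0.413), as edgeR log2 fold changes. Without meKO HFD replicate 1, 4 genes of this list passed, all lower, Lrp8 among them (adjusted p = 0.0317). The list lay at -0.16, -0.33 and -0.28 in the HFD libraries, below each chow library. Cd163 is also in the lists of iron handling and alternative activation.

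Of the 27 genes of iron and heme handling, 1 passed, lower on HFD (DESeq2 called 0 higher and 4 lower), and the median log2 fold change was -0.13. At an unadjusted p under 0.05 there were 2 higher and 6 lower, against 8.74% and 7.16% of all genes. Slc48a1, a heme transporter of the lysosome, was at -0.75 (adjusted p = 0.123) and Trf, transferrin, at -0.80 (adjusted p = 0.134) in edgeR. Slc40a1, the iron exporter ferroportin, had 7.26, 73.5 and 16.2 CPM in chow replicates 1 to 3 and 4.56, 5.72 and 3.69 CPM in HFD replicates 1 to 3, and its fold change rested on meKO chow replicate 2 (log2 fold change -2.80 ± 0.83 SE, edgeR adjusted p = 0.216, and -1.34 without that library). Hmox1, heme oxygenase, which was chosen after its values were seen, had 453, 1987 and 570.1 CPM on chow and 354, 317 and 397 CPM on HFD with the same library highest. Of the 25 NRF2 and glutathione genes, none passed in edgeR (DESeq2 called 0 higher and 2 lower), 1 higher and 6 lower had an unadjusted p under 0.05, and the median log2 fold change was -0.09. Osgin1, an oxidative stress growth inhibitor, was at -1.22 (adjusted p = 0.102), Txnrd1, thioredoxin reductase, at -0.62 (adjusted p = 0.173), and Gpx1, a glutathione peroxidase, at 0.46 (adjusted p = 0.216).

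Of the 18 matrix metalloproteinases, inhibitors and related genes in the table, 1 passed, lower on HFD (DESeq2 called 1 higher and 1 lower), and the median log2 fold change was 0.24. An unadjusted p under 0.05 was found for 5 higher and 2 lower, against 8.74% and 7.16% of all genes. Mmp9 fell as given above, and Mmp12, the macrophage elastase, was in the opposite direction at 1734, 2536 and 1751 CPM on chow and 2353, 5353 and 4571 CPM on HFD (log2 fold change 1.03 ± 0.26 SE, edgeR adjusted p = 0.14). Mmp23, a membrane-bound member, was at 1.35 (adjusted p = 0.172). Of the 23 Trem2 lipid-associated macrophage genes, none passed in edgeR (DESeq2 called 1 higher and 0 lower), 5 higher and 1 lower had an unadjusted p under 0.05, and the median log2 fold change was 0.12. Trem2, the lipid-sensing receptor, was at 0.26 (adjusted p = 0.363), Cd9, a tetraspanin, at 0.28 (adjusted p = 0.307), Spp1, osteopontin, at 0.05 (adjusted p = 0.92), Cstb, the cathepsin inhibitor cystatin B, at 0.66 (adjusted p = 0.211) and Gpnmb, a glycoprotein of lipid-laden macrophages, at -0.39 (adjusted p = 0.252). No gene of that list passed in edgeR with all libraries.

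Inflammatory genes had mostly positive diet differences, 20 positive and 7 negative, and their level overlapped between the diets. Of the 27 cytokines, chemokines and related genes in the table, none passed in edgeR (DESeq2 called 4 higher and 0 lower), and the median log2 fold change was 0.22. At an unadjusted p under 0.05 there were 6 higher and 0 lower, against 8.74% and 7.16% of all genes. Against the chow mean the list stood at 0.07, 0.42 and 0.18 in HFD replicates 1 to 3. Chow replicates 1 to 3 were at 0.12, 0.15 and -0.21. Il1rn, the interleukin 1 receptor antagonist, had 173, 208 and 123 CPM in chow replicates 1 to 3 and 289, 546 and 436 CPM in HFD replicates 1 to 3 (log2 fold change 1.33 ± 0.27 SE, edgeR adjusted p = 0.0879), and the groups did not overlap. The chemokines Cxcl14 and Ccl5 were at 1.10 (adjusted p = 0.123) and 1.07 (adjusted p = 0.145), whereas the cytokines Il1b and Tnf were at -0.07 (adjusted p = 0.933) and 0.45 (adjusted p = 0.44). Il1rn passed without meKO HFD replicate 1 (adjusted p = 0.0257), and the sign of Il1b changed in 4 of 22 alternatives.

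Of the 35 interferon-stimulated genes, none passed in edgeR (DESeq2 called 0 higher and 0 lower), and the median log2 fold change was -0.02. At an unadjusted p under 0.05 there were 4 higher and 3 lower, against 8.74% and 7.16% of all genes. In edgeR the oligoadenylate synthetase genes Oasl1 and Oas1g were at 0.74 (adjusted p = 0.19) and 0.82 (adjusted p = 0.209). Irf7, an interferon regulatory factor, was at 0.46 (adjusted p = 0.252). Oas1g belongs to a family of close copies and is uncertain. Of the 19 alternative activation markers, 1 passed, lower on HFD (DESeq2 called 0 higher and 1 lower), 2 higher and 3 lower had an unadjusted p under 0.05, and the median log2 fold change was -0.22. The gene that passed was Cd163. Clec10a, a galactose-binding lectin, was at -0.50 (adjusted p = 0.182). Of the 16 MHC class II genes, none passed in edgeR (DESeq2 called 0 higher and 0 lower), and the median log2 fold change was -0.04. At an unadjusted p under 0.05 there were 0 higher and 2 lower, beside the same shares of all genes. In edgeR Ciita, their transactivator, was at -0.92 (adjusted p = 0.188). Rfx5, a promoter-binding subunit, was at -0.44 (adjusted p = 0.302) and Cd74, the invariant chain, at -0.44 (adjusted p = 0.326). Of the 30 genes of apoptotic cell clearance and complement, none passed in edgeR (DESeq2 called 0 higher and 3 lower), 0 higher and 6 lower had an unadjusted p under 0.05, and the median log2 fold change was -0.11. Gas6, the ligand of the Axl and Mertk receptors, had 49.6, 82.2 and 45.00 CPM on chow and 22.7, 32.2 and 23.3 CPM on HFD (log2 fold change -1.18 ± 0.28 SE, edgeR adjusted p = 0.123).

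Of the 30 genes of the unfolded protein and integrated stress response, none passed in edgeR (DESeq2 called 2 higher and 0 lower), and the median log2 fold change was 0.19. At an unadjusted p under 0.05 there were 8 higher and 1 lower. Beside this and the next counts, 8.74% of all genes were higher and 7.16% lower at that p. The transcription factors Atf3 and Xbp1 were at 0.45 (adjusted p = 0.14) and 0.51 (adjusted p = 0.145) and Manf, a secreted chaperone, at 0.71 (adjusted p = 0.212) in edgeR, and HFD replicate 3 was the highest library for the list as a whole, at 0.43 against the chow mean. Of the 44 lysosomal genes, none passed in edgeR (DESeq2 called 0 higher and 0 lower), 4 higher and 6 lower had an unadjusted p under 0.05, and the median log2 fold change was -0.03, with Idua, an iduronidase, at -0.32 (adjusted p = 0.252) and Ctsk, cathepsin K, at 0.41 (adjusted p = 0.252). Of the 29 glycolysis genes, none passed in edgeR (DESeq2 called 1 higher and 1 lower), 5 higher and 1 lower had an unadjusted p under 0.05, and the median log2 fold change was 0.11, with Pfkm, a phosphofructokinase, at -0.62 (adjusted p = 0.112), Ldha, a lactate dehydrogenase, at 0.37 (adjusted p = 0.171) and Gapdh at 0.40 (adjusted p = 0.238). Of the 36 cell cycle genes, none passed in edgeR (DESeq2 called 0 higher and 0 lower), 4 higher and 0 lower had an unadjusted p under 0.05, and the median log2 fold change was 0.26, with Tyms, thymidylate synthase, at 0.91 (adjusted p = 0.199) and the cyclin-dependent kinases Cdk1 and Cdk4 at 0.76 (adjusted p = 0.217) and 0.43 (adjusted p = 0.253).

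Of the 34 genes of the actin cortex and podosomes, 1 passed, higher on HFD (DESeq2 called 1 higher and 0 lower), and the median log2 fold change was 0.08. At an unadjusted p under 0.05 there were 4 higher and 1 lower. The shares of all genes, for this and the next lists, were 8.74% higher and 7.16% lower. Cttn was the gene that passed, and Fscn1, the bundling protein fascin, was at 1.02 (adjusted p = 0.252) and Sh3pxd2a, a podosome scaffold, at -0.49 (adjusted p = 0.258) in edgeR. Of the 22 genes of Rab3 and secretory granules, 1 passed, lower on HFD (DESeq2 called 0 higher and 1 lower), 1 higher and 3 lower had an unadjusted p under 0.05, and the median log2 fold change was -0.06, with Stxbp2, a syntaxin-binding gene, at -0.26 (adjusted p = 0.259) after Rab3d. Of the 14 genes of the sodium pump and of calcineurin-like regulators, 1 passed higher and 1 lower on HFD (DESeq2 called 1 higher and 3 lower), 2 higher and 5 lower had an unadjusted p under 0.05, and the median log2 fold change was -0.21. Atp1b1 and Chp2 passed in opposite directions, and Slc9a9, a sodium and proton exchanger, was at -0.55 (adjusted p = 0.14). Of the 15 protein kinase C genes and relatives, none passed in edgeR (DESeq2 called 0 higher and 0 lower), 1 higher and 0 lower had an unadjusted p under 0.05, and the median log2 fold change was -0.15, with Prkd2, a protein kinase D, at -0.41 (adjusted p = 0.33) and Rack1, a scaffold for activated kinase C, at 0.28 (adjusted p = 0.384).

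**Figure D5:**
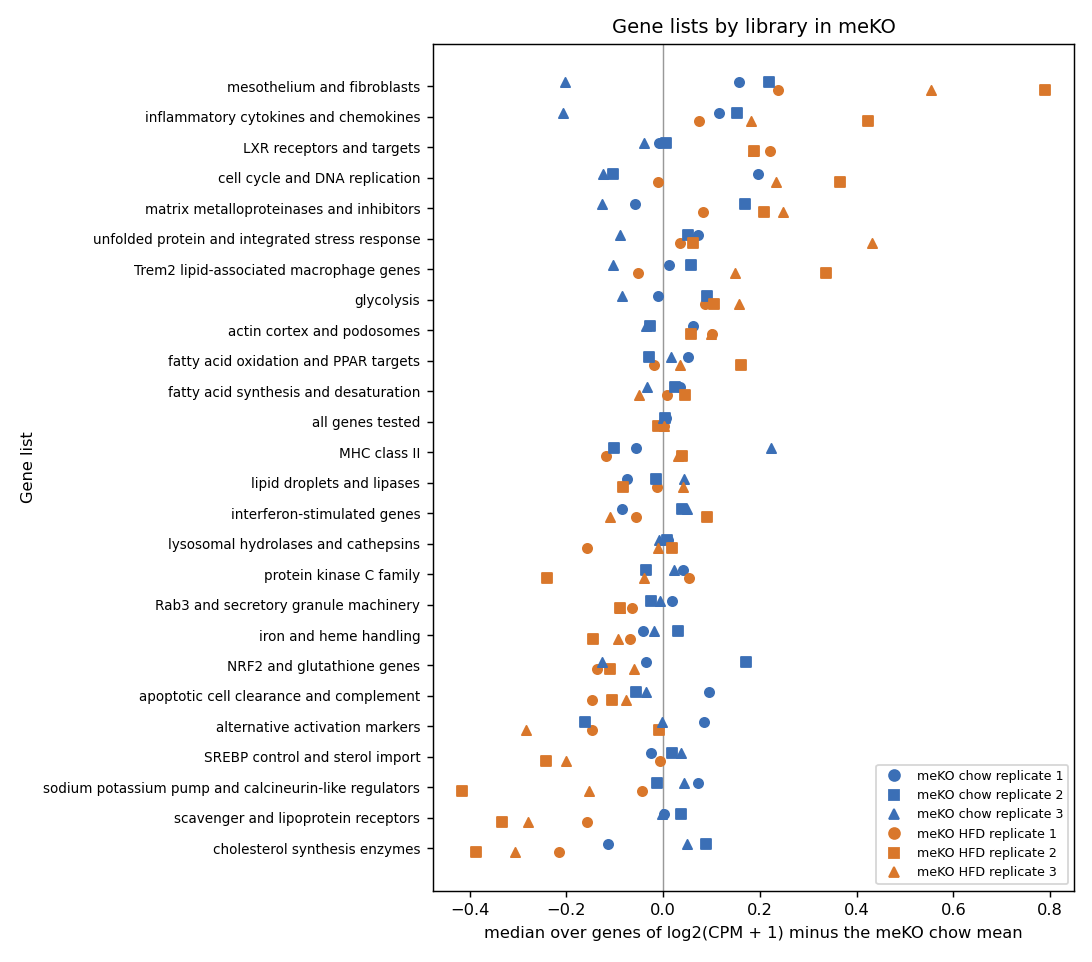
Each row is a gene list and each point a meKO library, given as the median over the listed genes of log2(CPM + 1) minus the mean of the 3 chow libraries (blue, chow; orange, HFD; marker shape, replicate). The cholesterol synthesis and scavenger receptor lists lie lower in all 3 HFD libraries than in each chow library. So do the lists of apoptotic cell clearance, iron and heme, Rab3 and the sodium pump, by smaller distances for most. The LXR list and the mesothelium and fibroblast list lie higher. HFD replicate 2 is the farthest from chow for many lists.

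Among genes with an unadjusted p under 0.01, a mean of at least 1 CPM and no overlap, the most positive fold changes did not pass. The highest was that of Clba1, an adaptor of clathrin vesicles, at 2.96, 3.31 and 2.14 CPM in chow replicates 1 to 3 and 3.41, 82.2 and 41.4 CPM in HFD replicates 1 to 3 (log2 fold change 3.90 ± 0.88 SE, edgeR adjusted p = 0.14). It was high in HFD replicates 2 and 3 and near the chow level in replicate 1. Crip2, a LIM domain protein, had 4.49, 2.58 and 1.76 CPM on chow and 5.96, 18.3 and 14.5 CPM on HFD (log2 fold change 2.12 ± 0.40 SE, edgeR adjusted p = 0.0575), and Ckb, the brain-type creatine kinase, had 85.02, 73.8 and 62.9 CPM on chow and 99.1, 357 and 236 CPM on HFD (log2 fold change 1.64 ± 0.34 SE, edgeR adjusted p = 0.0914), with the same 2 libraries highest. Pcdh7, a protocadherin, was at 1.96 (adjusted p = 0.113), Sema3a, a secreted guidance cue, at 1.78 (adjusted p = 0.141) and Gjb5, a connexin, at 1.96 (adjusted p = 0.0983). Among the lowest, Lrp8 and Slc40a1 are given above and Noxo1, an organizer of NADPH oxidase 1, was at -1.38 (adjusted p = 0.164). Without meKO HFD replicate 1, Clba1, Crip2, Ckb, Gjb5, Sema3a, Lyve1 and Noxo1 passed as well, with Clba1 at an adjusted p of 1.97e-06.

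Markers of other cells in the lavage were summed in the same libraries. The 19 mesothelium and fibroblast markers, led by Dcn, Col3a1 and Col1a2, summed to 63.3 to 122 CPM on chow and 141 to 184 CPM on HFD, without overlap. Of them, 9 had an unadjusted p under 0.05, all higher, and the median log2 fold change was 0.78. For all genes that p was reached by 8.74% higher and 7.16% lower, which stands beside the counts below too. None of the 19 passed in edgeR, and DESeq2 called 4, all higher. Wt1, a transcription factor of mesothelium, had 0.958, 0.950 and 0.760 CPM on chow and 2.16, 2.37 and 2.54 CPM on HFD (log2 fold change 1.39 ± 0.27 SE, edgeR adjusted p = 0.0657), and Krt8, a keratin, had 0.712, 1.38 and 0.760 CPM on chow and 1.20, 3.59 and 2.54 CPM on HFD (log2 fold change 1.33 ± 0.42 SE, edgeR adjusted p = 0.207). B cell markers (12, led by Cd22, Ighm and Cd79b) summed to 160.5 to 285 CPM on chow and 145 to 239 CPM on HFD, with 5 lower at an unadjusted p under 0.05. All 12 had negative log2 fold changes, with a median of -0.68, and none passed in edgeR. T and NK cell markers (17) summed to 553 to 695 CPM on chow and 643 to 784 CPM on HFD. Of these 17, 16 had positive and 1 negative log2 fold changes, with a median of 0.37. None passed in edgeR, DESeq2 called 1, higher, and 3 higher and 0 lower had an unadjusted p under 0.05. As the median of log2(CPM + 1) against the chow mean, they stood at 0.32, 0.20 and 0.30 in the HFD libraries. The chow libraries were at 0.01, 0.05 and 0.03, without overlap. Neutrophil markers (9) summed to 170.4 to 198 CPM on chow and 179 to 193 CPM on HFD, eosinophil markers (5) to 33.1 to 78.2 CPM on chow and 33.9 to 58.3 CPM on HFD, mast cell markers (13) to 312 to 589.8 CPM on chow and 351 to 527 CPM on HFD and dendritic cell markers (12) to 195 to 242 CPM on chow and 197 to 213 CPM on HFD. Markers of resident large peritoneal macrophages (16, led by Fn1, Cd93 and Vsig4) summed to 1273 to 1919 CPM on chow and 1327 to 1656 CPM on HFD. Of these 16, 7 had positive and 9 negative log2 fold changes, with a median of -0.13, and none passed in edgeR (unadjusted p under 0.05 for 1 higher and 1 lower; DESeq2 called 1, higher). The higher one was Gata6, the transcription factor of resident large peritoneal macrophages, named after its values were seen. It had 2.44, 1.55 and 1.35 CPM on chow and 3.06, 4.31 and 3.69 CPM on HFD, without overlap (log2 fold change 1.04 ± 0.27 SE, edgeR adjusted p = 0.14). Markers of red blood cells (4) summed to 1.34 to 37.7 CPM on chow and 5.74 to 59.1 CPM on HFD. In the summed level of these lists the chow and HFD libraries overlapped, apart from mesothelium and fibroblasts. No listed marker had a count of 0 in any of the 6 libraries. Without meKO HFD replicate 1, 4 of the mesothelium and fibroblast markers passed, all higher. The part of these cells in the results above was not tested.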

How the data were processed

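RNA was sequenced from 12 libraries of thioglycolate-elicited mouse macrophages, 3 in each of 4 groups (meKO or WT, HFD or chow), made by the TruSeq protocol from Trizol extracts per the labels. The deposited table holds raw whole-number counts of reads per Entrez gene for each library. The genome build mm10 and DESeq2 are named, without their roles, per the submitters' processing notes. The aligner, counter, annotation and strand setting are not given in the sources used here. All 12339 genes of the table passed the low-count filter applied here, and 186 had no symbol (0.44% of counts).

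The counts were scaled by trimmed means and tested in edgeR 4.0.16 (R 4.3.3) with the quasi-likelihood test, robust dispersions and 4 group means over all 12 libraries, which share 1 estimate of the spread. The contrasts were HFD minus chow in meKO, the same in WT, and their difference. Adjusted p-values are Benjamini-Hochberg over all 12339 genes, and genes below 0.05 passed. Alternatives were 10 other settings (DESeq2 1.42.0; voom without and with library weights in limma 3.58.1; median-of-ratios factors; plain totals; no filter; a minimum of 10 counts per library; non-robust dispersions; the 6 meKO libraries alone; a transcript length and GC offset from mgcv 1.9.3) and the omission of each of the 12 libraries. The script was tested on simulated counts. Totals of 25844958 to 37282772 counts limit the precision of genes near 1 CPM.

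The comparison, the 24 gene lists and 10 marker lists were chosen with earlier results of these data known. Genes named are those that passed, the 8 highest and 8 lowest fold changes with an unadjusted p under 0.01, at least 1 CPM and no overlap, up to 3 of each list by p, and a set of sterol, Trem2 and cytokine genes. Idi1, Hmgcs1, Sc5d, Nr1h3, Lpcat3, Fasn, Gnpda1, Pira2, Hmox1, Wt1, Krt8, Gata6, Camk2a, Adgre1 and Csf1r were added after their values were seen. Replicate numbers follow accession order and pair nothing. Promoter windows are RefSeq sequence on GRCm38.p6, for 9553 genes of the table. Some genes of the lists are counted in them but not reported here by name.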

Additional observations from a re-analysis of the deposited data

Results flagged for a closer look

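The diet effect differed between the genotypes, by edgeR's test of the difference at an adjusted p under 0.05, for 2 genes. Rpl29, which encodes a protein of the large ribosomal subunit, had 7693, 7275 and 4961 counts in the meKO chow libraries and 7460, 8445 and 5559 counts in the meKO HFD libraries. Its meKO log2 fold change was 0.37 (edgeR adjusted p = 0.38). The WT libraries had 4590, 2057 and 2949 counts on chow and 201, 200 and 221 counts on HFD. The difference, meKO minus WT, was 4.24 on the log2 scale (edgeR adjusted p = 2.53e-05). Rpl29 has many processed copies in the genome, so reads could be counted elsewhere and its value is uncertain.

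The other gene has no symbol in the table (Entrez gene 100504629). It had 123, 101 and 94 counts on chow and 142, 123 and 72 on HFD in the meKO libraries, and its meKO log2 fold change was 0.29 (edgeR adjusted p = 0.686). The WT libraries had 106, 28 and 49 counts on chow and 1, 1 and 0 on HFD. The fitted difference of 6.48 on the log2 scale (edgeR adjusted p = 0.00574) depends on counts near 0 and is no bound, and without WT HFD replicate 1 the adjusted p was 0.0521. In both genes the meKO libraries of the 2 diets overlapped.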

How the results depend on the processing

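Scd1 kept its direction and passed in all 22 alternatives, and the other 12 genes kept their direction in all 22. Against 13 genes (4 higher, 9 lower), DESeq2 called 226 (123 higher, 103 lower), voom with library weights 398 (213 and 185), limma-voom 9 (4 and 5), the length and GC correction 44 (16 and 28), and the 6 meKO libraries alone 1 (1 and 0). The share of calls that were higher was 30.8%, against 54.4% in DESeq2, 53.5% with library weights, 44.4% in limma-voom, 100% with the 6 meKO libraries alone and 37.5% with library totals. Omitting single libraries gave 1 to 135 calls, 1 to 75 higher and 0 to 60 lower. The count was 135 without meKO HFD replicate 1, 29 without WT chow replicate 3, 8 without WT HFD replicate 1, 3 without meKO chow replicate 3, 2 without meKO HFD replicate 2 and 1 without meKO HFD replicate 3. Without meKO chow replicate 1 it was 19, with 7 higher, and without WT HFD replicate 3 it was 9, with 5 lower. Genes at an unadjusted p under 0.05 numbered 1962, against 3202 with library weights and 869 to 3047 without single libraries (869 without meKO HFD replicate 2, 1008 without meKO chow replicate 3, 3047 without meKO HFD replicate 1). The genotype difference was called for 2 genes, against 1 with at least 10 counts in every library, 15 in DESeq2, 295 with library weights, 4 with the length and GC offset and 1 to 56 without single libraries (56 without WT chow replicate 3, 5 and 4 without meKO HFD replicates 1 and 2, 1 without WT HFD replicate 1). In WT 2634 genes passed, against 6411 with library weights, 1684 with the length and GC offset and 96 to 4921 without single libraries. The WT count was 129, 319 and 4921 without WT chow replicates 1, 2 and 3 and 460, 1672 and 96 without WT HFD replicates 1, 2 and 3. The cause of these shifts was not tested.

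Signs changed for 5 named genes that did not pass. Prkce ranged from -0.11 to 0.31 without single libraries, with -0.10 without meKO chow replicate 2, and Lyz2 from -0.24 (without meKO chow replicate 2) to 0.80. Srebf1 was 0.078 after the length and GC correction and -0.21 to 0.063 without single libraries. Spp1 was -0.24 with library weights, -0.13 after the correction and -0.093 to 0.27 without single libraries. Il1b was 0.083 in limma-voom and -0.42 to 0.22 without single libraries. No paired analysis was possible because the replicate numbers follow accession order and no label pairs the libraries. With 3 libraries per group and a shared spread, a gene that did not pass is not shown to be unchanged.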

Other observations

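Clba1, Crip2 and Ckb, chosen after their values were seen, lie near each other on chromosome 12. Their log2 fold changes on HFD in meKO were 3.90, 2.12 and 1.64, and meKO HFD replicates 2 and 3 were high while replicate 1 was near chow. Of the 26 genes of the table between Ckb and Crip2 (chr12:111669355-113145506), these 3 were the ones above 1 on the log2 scale. An unadjusted p under 0.05 was found for 6 of the 26, all higher, against 15.9% of all genes. These 6 include the 3 chosen genes, which also set the bounds of the stretch, so the count does not show a regional effect. The median of the 26 was 0.02. No test of the stretch was made.

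The length and GC correction added 31 calls to the 13. They included Selenop, the selenium carrier, at -0.88 (edgeR adjusted p = 0.0161), Hpse, heparanase, at -0.56 (0.0257), Sort1, the sorting receptor sortilin, at -0.61 (0.0307), Tgfb1i1, a focal adhesion protein, at 1.95 (0.0376) and Wt1 at 1.43 (0.0434) on the log2 scale. These are examples chosen after their values were seen.

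Camk2a, a calcium and calmodulin kinase chosen for its opposite signs, was at 1.63 (adjusted p = 0.207) in meKO and -1.54 (adjusted p = 0.0472) in WT. The edgeR adjusted p of the difference was 0.622.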
